A study of Mus musculus with 5 samples.

Results

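The cholesterol genes examined here were Hmgcs1, Sqle, Insig1, Srebf2, Idi1, Fdft1, Cyp51 and Dhcr7, chosen by gene name as enzymes and regulators of cholesterol synthesis and uptake. All 8 had a row in the count table of 33635 genes, and all 8 passed the expression filter (over 10 counts, 2 or more libraries) that left 17432 genes to test. The study asked how retinal gene expression responds to form deprivation, in which a translucent diffuser blurs the image and the eye grows towards myopia. Wild-type male C57BL6/J mice wore a diffuser goggle over the right eye from P28 to P42 (2 weeks of form-deprivation myopia, FDM), and the uncovered left eye of the same animals was the control. Poly-A RNA of the retina was sequenced in 5 libraries at P42, 2 from FDM eyes (FDM 1 and FDM 3) and 3 from control eyes (Control 1, Control 2 and Control 3). FDM 1 and Control 1 came from mouse 1, and FDM 3 and Control 3 from mouse 3. The sample titles number FDM 3 as 2, and its place beside Control 3 follows the study's sequencing metrics and the column name. Every control eye therefore belonged to a goggled mouse, and covered eye and right eye cannot be told apart. Refractive error at P42 was 0.976 and 0.2745 D in the FDM eyes and 2.4455, 3.1505 and 2.465 D in the control eyes.

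Cholesterol is built from acetyl-CoA through mevalonate and squalene. When sterol in the endoplasmic reticulum falls, SCAP carries the transcription factor SREBP-2, the product of Srebf2, to the Golgi for cleavage, and the released factor switches on nearly every enzyme of the route and genes of sterol uptake. INSIG proteins hold SCAP back when sterol is plentiful, so Insig1 is both a target and a brake. Retinal neurons and Muller glia make cholesterol locally, and the retina also takes up lipoprotein cholesterol through the retinal pigment epithelium (RPE).

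Library totals ranged from 40599047 to 56534931 counts, so each member had between 1654 and 9287 counts per library and a Poisson counting SD of 1.04% to 2.46%. The libraries differed in RNA of marker genes of tissue other than neural retina. The summed level of 12 RPE markers was 83.0 and 72.6 CPM (read counts scaled to library size) in FDM 1 and FDM 3. It was 87.6, 293.7 and 284.6 CPM in Control 1, 2 and 3, so Control 1 lay near its own FDM eye. At an unadjusted p of 0.05 in edgeR, 7 of 12 were called lower, against 1.16% of genes, and 0 after adjustment. Lens markers summed to 4.40 and 2266 CPM in FDM 1 and FDM 3 and to 4.26 to 24.1 CPM in controls. By the same threshold 12 of 12 tested were called higher, against 0.453% of genes, and 0 after adjustment. The lens sum was high in FDM 3 alone. Muscle markers summed to 11.0 to 12.1 CPM in FDM libraries and 10.7 to 85.1 CPM in controls, the latter in Control 3, and Myh4 was at 0 counts in FDM 1 and Control 1, as was Tnnt3 in Control 1. Summed rod markers lay between 52639 and 65977 CPM and Muller glia markers between 4494 and 4936 CPM, and the FDM and control ranges overlapped for both, so the retinal label held in all 5 libraries. The study reported several crystallins among its most upregulated transcripts. Whether carried-over tissue or expression in the retina gave the RPE, lens and muscle marker differences was not tested. Their part in the values of the cholesterol genes was not tested either. In whole retina, fewer cells of a type and less RNA per cell cannot be told apart.

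All 8 members were well expressed, and their order was assessed per length of annotated exon (CPM per kb, mean of 5 libraries). Insig1 was highest in level at 33.4 CPM per kb, next to Hmgcs1 at 32.5 CPM per kb, and these neighbours overlapped between libraries. Srebf2 followed at 25.9 CPM per kb and overlapped with Fdft1 at 22.1 CPM per kb. Idi1 at 17.1 CPM per kb lay apart from its neighbours in every library. Cyp51 at 13.6 CPM per kb overlapped with Sqle at 11.6 CPM per kb, and Dhcr7, the enzyme of the last step to cholesterol in one branch, was lowest at 6.58 CPM per kb. Levels of enzymes of the same route thus spanned a wide range.

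**Figure D1:**
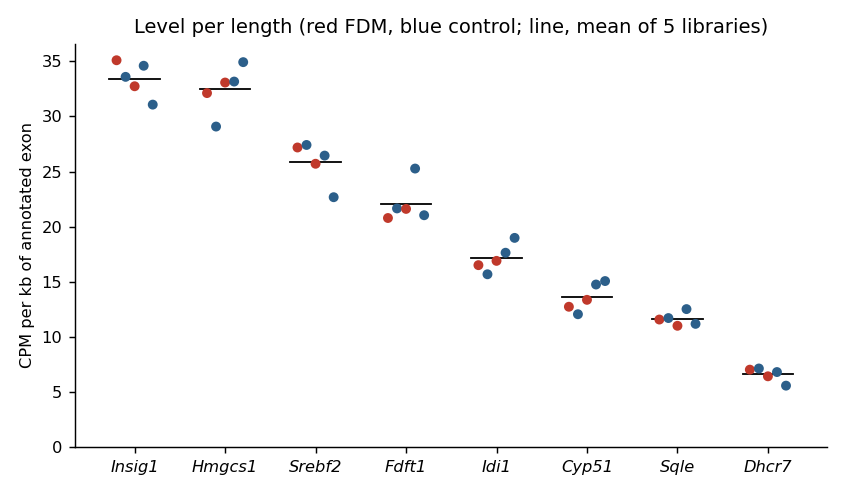
Level of each member in CPM per kb of annotated exon (y axis) by gene (x axis), with 1 point per library (red FDM, blue control) and a line at the mean of 5 libraries. Insig1 and Hmgcs1 were highest and Dhcr7 lowest, and red and blue points mixed within every gene.

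Promoter sequences from RefSeq (GRCm38.p6, 250 bases before to 50 after the start) were held for 6 of 8 members, all but Sqle and Fdft1. They are shown because SREBP-2 binds sterol regulatory elements in such promoters, so members with and without the letters of the core could be set side by side. The core was searched as TCACNNCA on both strands and is in capitals:
Hmgcs1, chr13:119690101-119690400, plus strand: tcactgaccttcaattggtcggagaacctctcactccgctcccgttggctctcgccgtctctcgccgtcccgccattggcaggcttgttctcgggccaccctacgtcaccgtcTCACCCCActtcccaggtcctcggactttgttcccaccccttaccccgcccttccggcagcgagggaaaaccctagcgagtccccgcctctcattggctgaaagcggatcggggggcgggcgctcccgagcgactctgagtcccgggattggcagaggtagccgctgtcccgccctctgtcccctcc
Srebf2, chr15:82147019-82147318, plus strand: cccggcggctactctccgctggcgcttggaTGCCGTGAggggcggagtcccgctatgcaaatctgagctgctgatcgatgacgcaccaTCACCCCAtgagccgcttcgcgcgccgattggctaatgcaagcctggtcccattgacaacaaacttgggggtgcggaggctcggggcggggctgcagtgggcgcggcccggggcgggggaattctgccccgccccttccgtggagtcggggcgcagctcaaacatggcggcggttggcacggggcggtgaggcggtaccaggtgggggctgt
Cyp51, chr5:4104648-4104947, minus strand: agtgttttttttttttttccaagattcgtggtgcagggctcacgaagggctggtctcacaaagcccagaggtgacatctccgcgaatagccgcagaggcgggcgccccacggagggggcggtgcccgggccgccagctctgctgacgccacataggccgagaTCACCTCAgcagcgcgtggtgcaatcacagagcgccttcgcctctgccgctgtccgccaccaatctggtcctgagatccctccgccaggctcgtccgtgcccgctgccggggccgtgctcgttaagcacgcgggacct
The Hmgcs1 match began at -137, the Srebf2 matches at -220 (reverse strand) and -162, and the Cyp51 match at -88, counting the start as 0. The 6 genes had 8 promoter windows, 3 of them of Dhcr7, of which 2 overlap, so windows are not separate members. Matches were found in 5 of 8 windows (these 3 and 2 of Dhcr7), against 13.8% of 32851 mouse promoters of the same length. By gene this was 4 of 6, and the Insig1 and Idi1 windows held none. The NF-Y box CCAAT and the GC box GGGCGG, for factors that work beside SREBP-2, were found in 6 of 8 and 7 of 8 windows, against 37.4% and 35.7% of all promoters, with the NF-Y box in 1 of the 3 Dhcr7 windows. The log2 fold changes given next were 0.01 for Hmgcs1, 0.05 for Srebf2, -0.10 for Cyp51 and 0.05 for Dhcr7 among genes with the core, and 0.04 for Insig1 and -0.06 for Idi1 without it. The values of genes with and without these letters in the window overlapped.

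The main question was whether these genes differed between FDM and control retinas. No difference was detected for any of them. In edgeR's quasi-likelihood test 0 of 8 passed an unadjusted p of 0.05, against 281 of 17432 genes (1.61%, with 0.453% higher and 1.16% lower in FDM), and 0 of 8 passed in DESeq2, against 0.987% of genes. After Benjamini-Hochberg adjustment 0 of all genes passed in edgeR and 3 in DESeq2. FDM and control values overlapped for all 8 members, as they did for most genes. Over all genes tested, FDM values lay above all controls in 3.97% and below all controls in 6.67%. Of the members, 4 had a log2 fold change (FDM minus control) above 0 (44.4% of genes were) and 4 below. Their median was -0.03 against -0.01 over all genes tested. The 95% intervals of the fold change ran from 0.889 to 1.18 for Insig1 and from 0.830 to 1.103 for Sqle, which had the smallest SEs, and from 0.851 to 1.26 for Dhcr7, which had the largest. The lowest bound among the 8 was 0.775, for Cyp51.

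Among the enzymes of the mevalonate arm, Hmgcs1 (chr13:119690379-119708260) makes HMG-CoA early in the route. It measured 147.6 and 152.0 CPM in FDM 1 and FDM 3 and 133.6, 160.5 and 152.4 CPM in Control 1, 2 and 3. Both FDM values lay inside the range of the controls. The means were 149.8 ± 3.11 CPM (SD, n = 2) and 148.8 ± 13.8 CPM (SD, n = 3), with a log2 fold change of 0.01 (SE 0.10, 95% interval -0.23 to 0.24). The adjusted p in edgeR was 1.0 for each of the 8 members. Idi1 (chr13:8885501-8892451), which isomerizes the isoprene unit, was at 57.8 and 59.2 CPM in FDM libraries and at 54.9, 66.5 and 61.8 CPM in controls. Its FDM values again fell between the lowest and highest control, and the log2 fold change was -0.06 (SE 0.10, 95% interval -0.30 to 0.18).

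The sterol arm begins with Fdft1 (chr14:63145150-63179578), squalene synthase, which was at 87.8 and 91.3 CPM in FDM libraries and at 91.5, 88.9 and 106.8 CPM in controls. Control 3 was high and the other 4 libraries lay close together. The log2 fold change was -0.10 (SE 0.10, 95% interval -0.34 to 0.15). Sqle (chr15:59315077-59331192), the squalene epoxidase and a rate-controlling oxygenase, was at 64.1 and 61.0 CPM in FDM libraries against 64.9, 62.0 and 69.4 CPM in controls. Control 3 was again the highest, and the log2 fold change was -0.06 (SE 0.09, 95% interval -0.27 to 0.14). Cyp51 (chr5:4081145-4104746), the lanosterol demethylase, was at 56.2 and 58.9 CPM against 53.2, 66.5 and 65.1 CPM in controls. Control 1 was its lowest library and Control 2 its highest, on either side of both FDM eyes. It had the lowest estimate of the 8, a log2 fold change of -0.10 (SE 0.11, 95% interval -0.37 to 0.17). Dhcr7 (chr7:143823145-143848410) was at 40.8 and 37.3 CPM in FDM libraries against 41.4, 32.4 and 39.5 CPM in controls. Control 2 stood low and the other 4 libraries overlapped. Its log2 fold change was 0.05 (SE 0.12, 95% interval -0.23 to 0.33).

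Of the regulators, Srebf2 (chr15:82147181-82205379) was at 195.3 and 184.7 CPM in FDM libraries and at 196.9, 162.9 and 190.0 CPM in controls. Only Control 2 fell away from the rest, and the log2 fold change was 0.05 (SE 0.10, 95% interval -0.19 to 0.30). Insig1 (chr5:28071363-28078662) was at 108.6 and 101.3 CPM against 103.9, 96.1 and 107.0 CPM in controls. FDM 1 was its highest library and Control 2 its lowest, and the log2 fold change was 0.04 (SE 0.09, 95% interval -0.17 to 0.24). The kit keeps no strand, so reads of the exon that Cyp51 shares with Akap9 and Fdft1 with Ctsb, on the opposite strand, and of exons that Hmgcs1 shares with the antisense gene Gm48342 and Idi1 with Gm48574, could not be told apart.

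**Figure D2:**
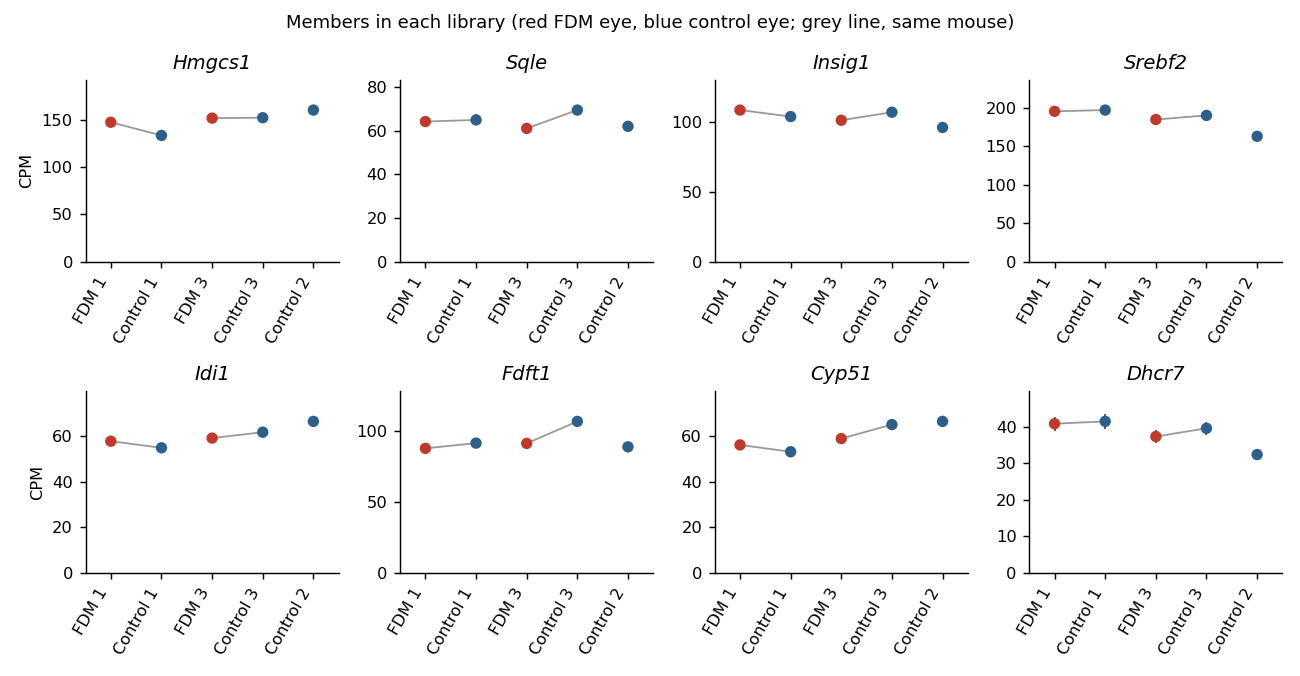
CPM of each member (y axis, from 0) in each library (x axis), red for FDM and blue for control eyes, with a grey line joining eyes of the same mouse and bars for the 95% Poisson counting interval, mostly smaller than the points. In all 8 panels FDM and control values overlapped, and Control 2 was the highest or the lowest library in 6 of 8.

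**Figure D3:**
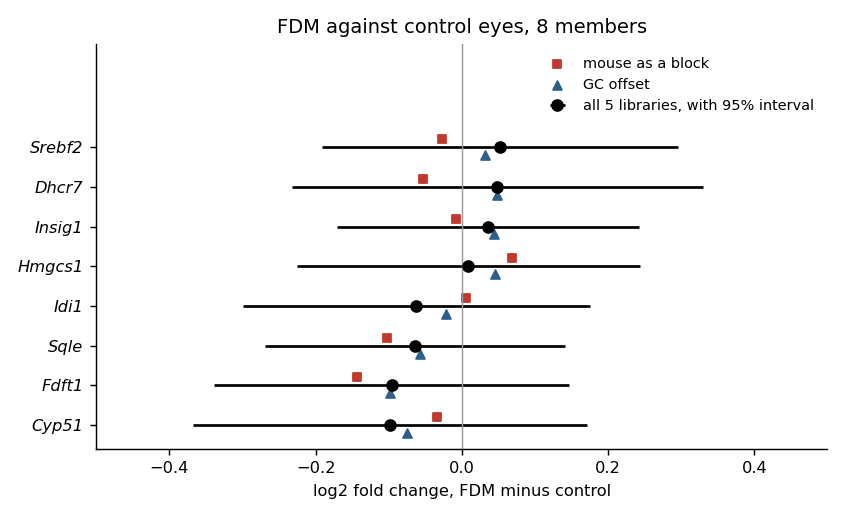
Log2 fold change, FDM minus control (x axis), of each member (y axis), as black points with 95% intervals for all 5 libraries, red squares with mouse as a block, and blue triangles with a GC offset. All 8 black intervals cross 0, and 4 members change sign with the block.

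Differences between the eyes of a mouse were given as values without a test, since each pair is 1 library against 1. In mouse 3 all 8 members were lower in the FDM eye than in the control eye, against 50.3% of genes. Fdft1 showed the widest gap at -0.23 (log2), followed by Sqle at -0.19 and Cyp51 at -0.14, while Srebf2 differed by -0.04 and Hmgcs1 by -0.00385. Scaling by library totals moved Hmgcs1 to 0.01 and the authors' normalized counts moved Dhcr7 to 0.01, which left 7 of 8 lower under each. In mouse 1 the members split, with 4 of 8 lower in the FDM eye against 55.3% of genes. Hmgcs1 was higher by 0.14 (log2), Cyp51 by 0.08, Idi1 by 0.07 and Insig1 by 0.06, while Fdft1 differed by -0.06 and Sqle, Srebf2 and Dhcr7 by -0.02, -0.01 and -0.02. Sqle, Srebf2, Fdft1 and Dhcr7 were lower in the FDM eye of both mice (4 of 8, against 30.3% of genes), 0 of 8 were higher in both (24.7% of genes), and 4 of 8 had opposite signs (44.9% of genes). The count lower in both mice moved with the scaling, to 3 of 8 with DESeq2 size factors and to 2 of 8 with library totals, with the authors' normalized counts or with an offset for GC content, and Fdft1 was among the genes under each of these. If FDM 3 is instead set against Control 2, as the titles number it, 4 of 8 members were lower in that FDM eye and 1 of 8, Sqle, in both pairs. Over all genes, the deviations of FDM 3 from its group mean correlated with those of Control 2 at 0.163 and with those of Control 3 at 0.0998. With 2 FDM libraries, the deviation of FDM 3 is that of FDM 1 with its sign reversed, so these values cannot decide the pairing. FDM 3 carried the lens markers and Control 3 the muscle markers, and Control 3 also held more RPE marker signal. Their part in the mouse 3 differences was not tested.

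**Figure D4:**
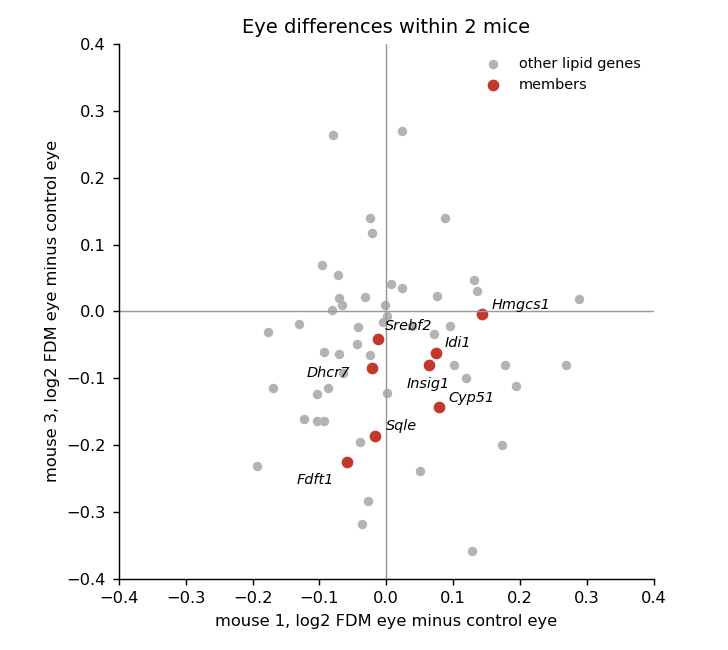
Log2 difference, FDM eye minus control eye, in mouse 1 (x axis) and mouse 3 (y axis) for the members (red, named) and other genes of the lipid lists (grey), each point a gene. All 8 members lie below 0 on the y axis and 4 of 8 below 0 on the x axis, and 1 gene of 59, Ch25h, lies outside the axes.

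With mouse as a block, 0 of 8 members passed (edgeR unadjusted p of 0.05), while 1261 genes (7.23%) did and 0.31% passed after adjustment, and 0 of 8 passed with the block by title numbers, against 2.52% of genes. Fdft1 came closest at a log2 fold change of -0.14 (SE 0.07, adjusted p = 0.695 in edgeR), a fit that leaves 1 residual degree of freedom. Srebf2, Insig1, Dhcr7 and Idi1 changed sign with the block, to -0.03, -0.01, -0.05 and 0.01. All 8 intervals of the main fit crossed 0, so the sign was not settled by these libraries for any of the 8 members.

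The wider route was described by 59 genes in 6 lists covering synthesis, sterol sensing, uptake, efflux and fatty acid synthesis, which include the 8 members. In edgeR, 0 of 59 passed an unadjusted p of 0.05 and in DESeq2 0 of 59, with 25 above 0 and 34 below and a median log2 fold change of -0.02 against -0.01 for all genes. The mevalonate arm (9 genes) had a median of -0.02 and the sterol arm (13 genes) a median of -0.04. Sterol sensing and SREBP processing (9 genes) had a median of 0.03, uptake and lysosomal handling (10 genes) 0.01, efflux, storage and oxysterols (10 genes) -0.06, and fatty acid synthesis (8 genes) -0.01.

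Within synthesis, Lss, which closes the sterol ring, was the gene of the lists with both FDM values (73.5 and 70.5 CPM) above all controls (69.2, 69.0 and 64.0 CPM), a non-overlap found in that direction in 3.97% of genes, at a log2 fold change of 0.10 (SE 0.08). Mvd and Msmo1 had log2 fold changes of -0.02 and -0.06. Of the sensors, Scap had a log2 fold change of 0.06, Insig2 of -0.00446 and Srebf1, the SREBP gene of fatty acid synthesis, of 0.07, with SEs of 0.11, 0.08 and 0.20.

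On the export side, Apoe, the main apolipoprotein of glia, was at 421.0 and 462.6 CPM in FDM libraries and at 431.6, 570.0 and 576.9 CPM in controls. Control 2 and Control 3, the libraries with most RPE marker signal, were its high values, and the log2 fold change was -0.25 (SE 0.14, 95% interval -0.58 to 0.08). Abca1, the sterol exporter, was highest in Control 2 at 26.0 CPM, with 14.7 and 15.3 CPM in FDM libraries and 13.1 and 17.6 CPM in Control 1 and Control 3 (log2 fold change -0.33, SE 0.26). Npc2 and Cyp27a1, named after their values were seen, were the 2 genes of the lists with FDM values below all controls (6.67% of genes), at -0.09 and -0.19.

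Counts of calls in the lists moved with 1 library and with the block. Without Control 1, 5 of 59 lipid genes passed (edgeR unadjusted p of 0.05), against 5.45% of all genes: Apoe (-0.38), Lipa (-0.39), Abca1 (-0.54), Ch25h (-1.52) and Tm7sf2 (0.30), and 0 of 8 members did, Cyp51 coming nearest at -0.19 (SE 0.08). Ch25h had few reads, 3 and 8 counts in FDM 1 and FDM 3 and 4, 15 and 21 in Control 1, 2 and 3. The controls that remained were those with the highest summed RPE markers, 293.7 and 284.6 CPM, and the part of RPE signal in these calls was not tested. With mouse as a block, 3 of 59 passed, among them Nsdhl (-0.14) and Apoe (-0.18), against 7.23% of all genes. The adjusted p of each gene called was 0.545 or higher in these edgeR fits.

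For every member the range of the 3 controls, from 0.16 (Insig1 and Sqle) to 0.36 (Dhcr7) on the log2 scale, was wider than the difference between the groups. The coefficient of variation over 5 libraries ran from 4.78% for Insig1 to 9.58% for Dhcr7, above the counting error. The median SD over the 3 controls was 0.14 (log2) for the members, 0.15 for all genes and 0.12 for the 5017 genes within the members' range of CPM. Grouped after their values were seen, Hmgcs1, Idi1 and Cyp51 were each highest in Control 2 and lowest in Control 1, with Pearson correlations of 0.89 to 0.96 over 5 libraries. Srebf2, Dhcr7 and Insig1 were each lowest in Control 2, with correlations of 0.89 to 0.996, and Srebf2 ran opposite to Idi1 (r = -0.89). Sqle and Fdft1 were both highest in Control 3 (r = 0.83). The regulator Srebf2 thus varied opposite to Hmgcs1, Idi1 and Cyp51 between libraries. It varied in the same direction as the other enzymes, with r = 0.996 for Dhcr7, 0.47 for Sqle and 0.22 for Fdft1. These points share 5 libraries and their depth and composition, and the correlations are descriptions.

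Base composition ran alongside this ordering. GC content of the longest transcript ran from 41.9% for Idi1 and 43.1% for Hmgcs1 to 52.8% for Dhcr7 and 57.9% for Srebf2. Control 2 minus Control 1 (log2 CPM) was 0.28 for Idi1, 0.26 for Hmgcs1 and 0.32 for Cyp51, and -0.36 for Dhcr7 and -0.27 for Srebf2, with 3 of 8 members higher in Control 2 against 48.2% of genes. Over 17413 genes with a transcript the same difference had a median of 0.25 in the lowest of 5 bins of GC content and -0.23 in the highest. GC content and this difference had r = -0.32 and rho = -0.51 over those genes, r = -0.62 over the 59 lipid genes and r = -0.86 over the 8 members, correlations across genes, which are not independent replicates. With an offset for GC in each library, Control 2 minus Control 1 was 0.04 for Hmgcs1, 0.03 for Idi1 and -0.04 for Srebf2, but still 0.19 for Cyp51 and -0.24 for Dhcr7, and -0.17 for Insig1, from -0.11. The median control SD of the members went from 0.14 to 0.11 and that of all genes tested from 0.15 to 0.12, with an offset fitted to these same libraries. It rose for Sqle (0.08 to 0.10) and Insig1 (0.08 to 0.11) and fell for the other members. GC content and the FDM difference had r = 0.085 over all genes, 0.16 over the 59 lipid genes and 0.42 over the 8 members. With the offset 0 of 8 members passed, with log2 fold changes from -0.10 (Fdft1) to 0.05 (Dhcr7).

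**Figure D5:**
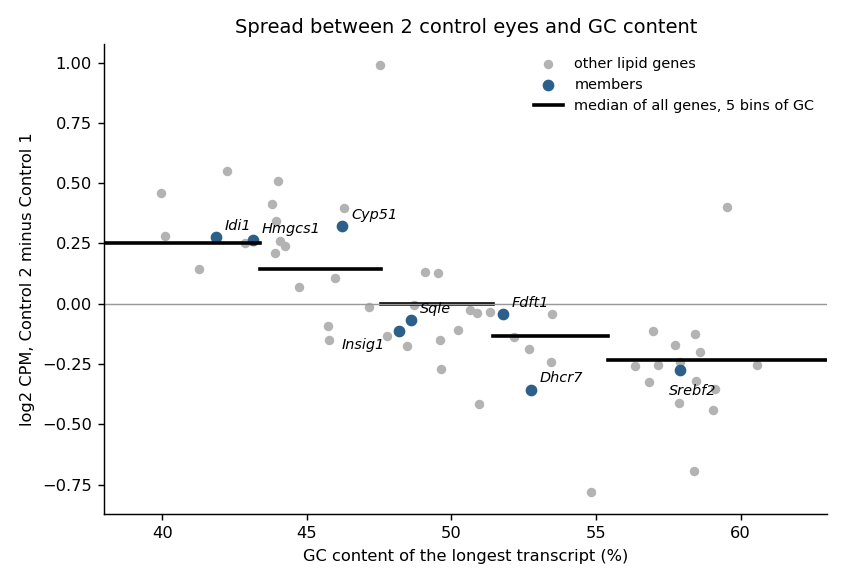
Control 2 minus Control 1 in log2 CPM (y axis) against GC content of the longest transcript in percent (x axis) for the members (blue, named) and other lipid genes (grey), with black lines at the median of all genes in 5 bins of GC content. Idi1, Hmgcs1 and Cyp51 lie above 0 and Dhcr7 and Srebf2 below, along the slope of the medians, and 1 gene of 59, Ch25h, is not drawn.

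The members' mean standardised profile over the 5 libraries was highest in Control 3. The 5 other genes of at least 10 CPM most like it, of 10593 compared by Pearson correlation over 5 libraries, were Snw1 (0.994), Btd (0.989), Fam174a (0.988), Fmc1 (0.987) and Cndp2 (0.987). These 5 were picked as the highest of 10593 correlations over 5 libraries, so values this high follow in part from the selection. Snw1 itself ran only from 117.5 CPM in Control 1 to 123.4 CPM in Control 3. The profile averages members that ran in opposite directions.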

How the data were processed

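Retinal poly-A RNA was sequenced by the authors with a kit that does not mark strand. According to the submitters' processing notes, Trimmomatic 0.39, Salmon 1.10.1 and R 4.3.1 were used with GRCm38/mm10. The deposited estimated counts per gene (33636 rows, 1 repeated identifier dropped) were whole numbers and were tested as they stood. The authors' normalized counts, a signal deposited beside them and scaled with DESeq2 by a factor that differs between genes of a library, served as an alternative. The authors set aside 1 more FDM library because of read duplication, and it is not analysed here. Groups came from the labels.

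Genes above 10 counts in 2 or more libraries were tested with edgeR 4.0.16 (R 4.3.3, quasi-likelihood, TMM factors, no covariate), called at an unadjusted p of 0.05 as in the study's methods, with Benjamini-Hochberg values over 17432 genes. CPM is scaled by TMM. Whether libraries with the same mouse number deviate together was checked over genes. The correlation of deviations was 0.247 for FDM 1 with Control 1. For FDM 3 it was 0.0998 with Control 3 and 0.163 with Control 2. With 2 FDM libraries, the deviations of FDM 3 mirror those of FDM 1, so these values cannot decide the pairing of FDM 3. The pairing used rests on the study's mouse numbers. The study's mean and SD of the interocular shift also cover the mouse whose FDM eye is not listed, so they cannot be matched directly. With the value of that eye left free, the listed refractive errors can meet both only under this pairing. DESeq2 1.42.0, limma 3.58.1, other scalings and filters, a block and libraries left out were alternatives, and a GC offset (lowess span 0.3) was added after seeing the data. Scripts were tested on simulated data. No 2 libraries were duplicates. Gene positions are those of GENCODE M21 (GRCm38). Members and lists were chosen with earlier results of these data known. Named genes were the 8 members, fixed pathway genes (Srebf1, Scap, Insig2, Lss, Mvd, Msmo1, Apoe, Abca1, and others not reported here), any lipid gene called and the 5 most like the member profile. Marker lists also covered cones, ganglion and amacrine cells, blood and activity-regulated genes, with 0, 0, 0 and 1 genes called, the last lower. With mouse as a block these counts were 2, 0, 1 and 8, and all 8 activity-regulated genes tested were lower in the FDM eye of both mice, 5 of them past an adjusted p of 0.05. The 9 genes of that list summed to 229.0 and 179.8 CPM in FDM 1 and FDM 3. Control 1 and Control 3 summed to 333.6 and 310.5 CPM. Control 2, which has no partner in the block, was the lowest library at 157.4 CPM. The block fit leaves 1 residual degree of freedom.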

Additional observations from a re-analysis of the deposited data

How the results depend on the processing

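None of the 8 members was called in any of the 16 alternatives, whose log2 fold changes ran from -0.19 (Cyp51, without Control 1) to 0.12 (Dhcr7). With mouse as a replicate block, the fold changes of Dhcr7 (-0.0532), Idi1 (0.00553), Insig1 (-0.00854) and Srebf2 (-0.0266) changed sign, and with the block and a GC offset those of Dhcr7 (-0.0276) and Insig1 (-0.0176) did. Leaving out 1 library gave ranges of -0.0613 to 0.0766 for Hmgcs1, -0.131 to 0.0135 for Idi1, -0.0156 to 0.0849 for Insig1, -0.0155 to 0.108 for Srebf2 and -0.0413 to 0.121 for Dhcr7, each crossing 0. Sqle, Fdft1 and Cyp51 stayed below 0 in all 16. Their values nearest 0 were -0.0135 for Sqle and -0.00399 for Fdft1 without Control 3, and -0.0300 for Cyp51 without Control 2. Lipid genes called numbered 0 in the main test, 3 with the mouse block, 1 (Abca1) with the block by title numbers, 2 (Nsdhl, Pnpla3) with the block and GC offset, and 0 to 5 with 1 library left out (5 without Control 1). Members lower in both eye pairs numbered 4, and 1 to 3 under other scalings, the GC offset or title pairing. Members higher in both numbered 0, and 1 with library totals, title pairing or the authors' normalized counts. Genes called over the whole table numbered 281, against 172 with DESeq2, 498 with no filter, 1261 and 1385 with the mouse block without and with the GC offset, 439 with title numbers, 170 without FDM 1, 946 without Control 1, 535 without Control 2 and 146 without Control 3. The cause of these changes was not tested. Where 1 FDM library remained, it was assumed to vary like the controls. Counting SDs (1.04% to 2.46%) were below the spread between libraries, and SEs moved with the fit in the same eyes (Srebf2 from 0.10 to 0.05 with the mouse block, Hmgcs1 from 0.10 to 0.07 with the GC offset). Counting intervals cover counting error only.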
